A study of Homo sapiens with 18 samples.

Results

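This account follows 9 genes of the type I interferon receptor and its signalling chain through a time course of interferon treatment in human keratinocytes. The genes were taken by name: the receptor chains IFNAR1 and IFNAR2, the receptor-bound kinases JAK1 and TYK2, the transcription factor subunits STAT2 and IRF9, the further transcription factor STAT3, and the feedback inhibitors SOCS1 and SOCS3. All 9 were among the 16472 genes of the deposited table, and 8 of the 9 were among the 13280 genes with enough signal to be tested (3 or more libraries at 1 RPKM or above). SOCS1 fell short of that filter. RPKM corrects a read number for gene length and for the size of the library, so levels may be compared between genes; between libraries, small differences still depend on scaling, as given below.

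RNA was sequenced from NIKS cells, an immortalized line of human epidermal keratinocytes that grows on irradiated mouse J2/3T3 fibroblasts. The 18 libraries form 6 groups of 3 biological replicates: SP100 wild-type (WT) and SP100 knockout (KO) cells, each untreated (0 h) or given human interferon alpha 2a (25 ng/mL) over 12 or 48 h. SP100 encodes a protein of PML nuclear bodies. The column names of the table give 1 cell line for each genotype, headed Vec2 for WT and KO5 for KO. What SP100 does and what else sets these lines apart thus cannot be told apart. Untreated cells form 1 group for each genotype, labelled 0 h of interferon. No untreated group is labelled for 12 or 48 h. Effects of interferon and of longer culture thus cannot be told apart either.

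Interferon alpha binds a receptor made of IFNAR1 and IFNAR2. TYK2 is bound to the first chain and JAK1 to the second, and on binding of the ligand these kinases phosphorylate STAT proteins. STAT2 and IRF9 are subunits of ISGF3, the complex that enters the nucleus and binds interferon-stimulated response elements (ISRE) before interferon-stimulated genes. STAT3 is also activated downstream of this receptor, and is best known as the effector of the interleukin-6 family, and STAT dimers bind gamma-activated sites (GAS). SOCS1 and SOCS3 are inhibitors made in response to cytokines: they bind to receptors or JAK kinases and dampen signalling.

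Promoter sequences are shown for the 3 members with the highest fold rise in mean RPKM at 12 h in WT cells, IRF9, SOCS1 and STAT2. RefSeq windows on GRCh38.p14, from 250 bases before to 50 bases after a gene's start, covered 8 of the 9 genes in 12 windows; IFNAR2 had no entry. The windows were searched on both strands for the ISRE (GAAANNGAAA) and the GAS (TTCNNNGAA). A shorter ISRE core (GAANNGAAA), added after the sequences had been seen, was searched as well. Its GAA blocks stand 1 base closer together, so an ISRE is not itself a match to the core. Of all 35116 windows of the same length, 3.57% held the ISRE, 7.66% the short core and 7.66% the GAS. Capitals mark the matches in the sequences below, which read 5′ to 3′ on the strand of the gene.
IRF9, GAS, chr14:24161193-24161219, plus strand: ccacgtgatTTCTGGGAAaaggccctc
IRF9, short core, chr14:24161220-24161246, plus strand: cctggaggaGAACTGAAActtagggtg
SOCS1, ISRE, chr16:11256205-11256454, minus strand: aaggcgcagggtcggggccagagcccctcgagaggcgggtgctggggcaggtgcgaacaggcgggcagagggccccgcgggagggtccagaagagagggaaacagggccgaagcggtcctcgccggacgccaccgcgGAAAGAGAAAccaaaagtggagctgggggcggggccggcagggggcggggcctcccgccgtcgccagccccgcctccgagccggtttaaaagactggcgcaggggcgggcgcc
STAT2, no match, chr12:56360158-56360357, minus strand: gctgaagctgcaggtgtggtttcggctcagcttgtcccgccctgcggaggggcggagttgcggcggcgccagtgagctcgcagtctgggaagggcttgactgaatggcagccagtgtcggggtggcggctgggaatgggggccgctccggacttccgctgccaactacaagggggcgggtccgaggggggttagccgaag

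In the IRF9 window the GAS began 63 bases and the short core 36 bases before the start. The SOCS1 window held 1 ISRE, which began 113 bases before the start. The windows of STAT2, STAT3, SOCS3, JAK1, TYK2 and IFNAR1 held none of the 3 motifs. A match describes these letters only, and the absence of a match says only that the letters are not in this window.

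SP100 itself was lower in every KO library than in every WT library of its time, with log2 differences of -0.94, -0.83 and -1.08 at the 3 times (SE 0.059 each). Where the gene was edited is not given in the labels, so its RNA level is no check of the knockout. Relative sequencing depth, recovered from the step size of low values in 179 genes, spanned a 1.40-fold range over the 18 libraries, and 83.2% of the values used lay within 3% of it. Pairs of replicates correlated at 0.985 to 0.989 across genes. All 7 keratinocyte markers were in the table, at a summed 13914 to 16962 RPKM, while 2 of 7 fibroblast markers were, at a sum of 1.40 to 3.18 RPKM, and 1 of 4 melanocyte markers, at 0.37 to 1.57 RPKM. Of 6 markers of haematopoietic cells, 3 were in the table, and their sum was 19.7 to 25.5 RPKM in untreated and 36.2 to 59.2 RPKM in treated libraries. Most of it came from CD68. CD14 went the other way, from 5.09 ± 0.85 RPKM (SD, n = 3) untreated to 2.40 ± 0.25 at 12 h in WT and from 5.21 ± 1.25 to 1.43 ± 0.20 in KO, while PTPRC and CD3E were not in the table. In whole-culture RNA, a change in the number of cells that express a gene and a change in the RNA per cell cannot be told apart.

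Changes were measured as differences of log2(RPKM + 1) with limma, with Benjamini-Hochberg adjustment over all 13280 genes in each of 11 comparisons, and a gene was called at an adjusted p under 0.05. At 12 h in WT cells, 4 of the 8 tested genes rose (JAK1, STAT3, STAT2 and IRF9) and 1 fell (IFNAR2), where 15.1% of all genes were called higher and 29.8% lower. KO cells at 12 h showed the same 4 genes higher and 2 lower (IFNAR1 and IFNAR2), against 16.0% higher and 32.8% lower of all genes. By 48 h the calls against untreated cells were 2 higher in WT (STAT2 and IRF9) and 3 higher in KO (STAT3, STAT2 and IRF9). None was lower at 48 h in either genotype. The background at 48 h was 6.52% higher and 6.30% lower for WT, and 5.90% higher and 7.42% lower for KO. Comparisons of 12 and 48 h with the same untreated libraries share those controls. The median difference of the 8 genes was 0.179 in WT and 0.263 in KO at 12 h, where the median over all genes was -0.0855 and -0.0946.

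Between 12 and 48 h in WT, 2 of the 8 genes rose and 3 fell, where 24.6% of all genes were called higher and 11.3% lower. In KO, 1 rose and 4 fell against 27.7% higher and 14.0% lower. Without WT replicate 1 at 12 h the WT count was 3, and without KO replicate 2 at 48 h the KO count was 3. The balance of genes called higher and lower in comparisons with the 12 h libraries depended on scaling. With median-of-ratios scaling, WT cells at 12 h had 21.8% of all genes higher and 20.5% lower, and KO cells 23.7% and 22.9%. Between 12 and 48 h that scaling called 16.1% of genes higher and 18.2% lower for WT, against 19.1% and 21.1% for KO. Under it the 8 genes counted 5 higher and 1 lower for WT at 12 h, and 4 and 1 for KO. Their split between 12 and 48 h was then 1 higher and 4 lower for WT, and 1 and 5 for KO.

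**Figure D1:**
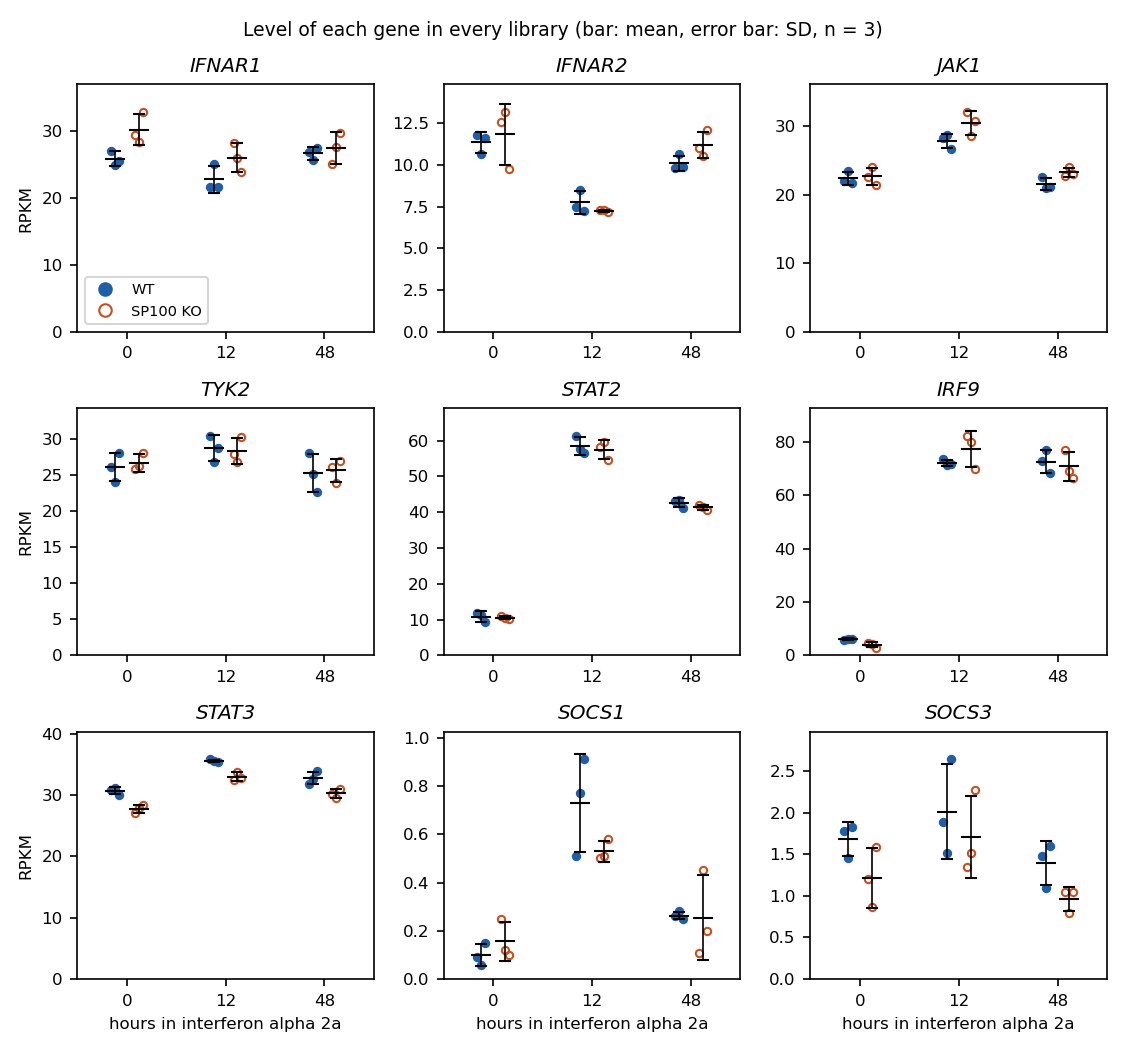
RPKM of each of the 9 genes (vertical axes from 0, each gene on its own scale) against hours in interferon alpha 2a, with filled points for WT and open points for SP100 KO libraries, a bar for the mean and an error bar for the SD (n = 3). STAT2 and IRF9 stand far above their untreated levels at 12 and 48 h in both genotypes, IFNAR2 dips and JAK1 peaks at 12 h, and TYK2 stays between 22.7 and 30.5 RPKM in all 18 libraries.

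IFNAR2, the chain that carries JAK1, fell at 12 h in both genotypes and had returned toward its untreated level by 48 h. In WT it stood at 11.8, 10.7 and 11.6 RPKM untreated, 7.51, 8.53 and 7.25 at 12 h and 9.85, 10.6 and 9.86 at 48 h. In KO the values were 12.6, 13.2 and 9.77 RPKM untreated, 7.29, 7.31 and 7.17 at 12 h and 11.0, 10.5 and 12.1 at 48 h. All 6 libraries at 12 h lay below all 12 others, and KO replicate 3 was the lowest of the untreated libraries. The mean at 12 h was 68.3% of the untreated mean in WT and 61.3% in KO. The log2 difference was -0.50 in WT (SE 0.089, adjusted p = 0.000313) and -0.63 in KO (adjusted p = 3.12e-05), and the rise from 12 to 48 h was 0.35 (adjusted p = 0.00679) and 0.56 (adjusted p = 0.000127). At 48 h it did not differ from untreated cells at the threshold (-0.15 in WT, 95% interval -0.34 to 0.04, and -0.06 in KO, -0.25 to 0.13).

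IFNAR1, the chain that carries TYK2, moved less. Its WT values were 27.1, 25.0 and 25.6 RPKM untreated, 21.6, 25.2 and 21.7 at 12 h and 26.9, 25.7 and 27.5 at 48 h. Its KO values were 29.4, 28.4 and 32.9 RPKM untreated, 28.2, 26.0 and 23.8 at 12 h and 25.1, 27.7 and 29.8 at 48 h. The untreated and 12 h groups overlapped in WT and were separate in KO. IFNAR1 fell at 12 h in KO by 0.21 on the log2 scale (adjusted p = 0.0341), and the WT difference of -0.18 missed the threshold (adjusted p = 0.0736). From 12 to 48 h it rose in WT by 0.22 (adjusted p = 0.0369). With median-of-ratios scaling the KO difference at 12 h was -0.11 (adjusted p = 0.276) and the WT difference from 12 to 48 h was 0.13 (adjusted p = 0.193), so both calls were lost. Over 25 alternatives (7 other settings and each of the 18 libraries left out in turn) they were lost in 6 and 7. The IFNAR1 to IFNAR2 ratio of RPKM averaged 2.28 ± 0.073 without interferon, 2.94 ± 0.060 after 12 h and 2.64 ± 0.20 after 48 h for WT (SD, n = 3), and 2.62 ± 0.65, 3.58 ± 0.27 and 2.46 ± 0.18 for KO. IFNAR2 shares sequence with the read-through gene AP000295.1 on its own strand (0.07 to 1.78 RPKM) and overlaps IL10RB-DT on the other (1.24 to 2.23 RPKM). The library kit keeps the strand, but whether the counting used it is not given in the sources used here.

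JAK1, the kinase on IFNAR2, rose at 12 h in both genotypes and fell again by 48 h. WT cells held 22.0, 23.5 and 21.7 RPKM untreated, 28.2, 28.6 and 26.7 at 12 h and 22.6, 20.9 and 21.1 at 48 h. KO cells held 22.6, 24.0 and 21.4 RPKM untreated, 32.1, 28.6 and 30.7 at 12 h and 22.8, 24.0 and 23.1 at 48 h. Every library at 12 h lay above every untreated and 48 h library of both genotypes. The rise was 0.31 in WT (SE 0.054, adjusted p = 0.000288) and 0.41 in KO (adjusted p = 1.45e-05) on the log2 scale, or 1.25-fold and 1.34-fold in mean RPKM. The fall from 12 to 48 h was of like size, -0.36 in WT (adjusted p = 0.000111) and -0.37 in KO (adjusted p = 5.66e-05). Against untreated cells JAK1 at 48 h differed by -0.05 in WT (95% interval -0.17 to 0.06) and by 0.04 in KO (-0.08 to 0.15). JAK1 and IFNAR2, which bind each other at the receptor, thus moved in opposite directions at 12 h. JAK1 overlaps RAVER2 on the other strand, which was at 2.0 to 3.77 RPKM.

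TYK2, the kinase on IFNAR1, passed the threshold in none of the 11 comparisons. In WT it stood at 26.2, 24.1 and 28.1 RPKM untreated, 30.5, 26.9 and 28.8 at 12 h and 28.1, 25.2 and 22.7 at 48 h. In KO it stood at 25.8, 26.3 and 28.1 RPKM untreated, 28.0, 26.9 and 30.3 at 12 h and 26.2, 23.9 and 27.0 at 48 h, and the groups overlapped in every comparison. The differences at 12 h were 0.13 in WT (95% interval -0.03 to 0.30) and 0.08 in KO (-0.08 to 0.25). With median-of-ratios scaling TYK2 was called higher at 12 h in WT (0.23, adjusted p = 0.0306) and lower from 12 to 48 h in WT (-0.26, adjusted p = 0.0175) and KO (-0.23, adjusted p = 0.0324).

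The ISGF3 subunits STAT2 and IRF9 gave the largest changes among the 8 tested genes. STAT2 stood at 12.0, 11.3 and 9.21 RPKM in untreated WT cells, 61.4, 57.6 and 56.5 at 12 h and 43.2, 43.5 and 41.2 at 48 h. In KO it stood at 10.9, 10.3 and 10.3 RPKM untreated, 58.2, 59.7 and 54.6 at 12 h and 42.1, 41.5 and 40.7 at 48 h. The 3 times were fully separate, with the peak at 12 h, and the WT and KO values overlapped at each time. STAT2 rose at 12 h by 2.34 in WT (SE 0.069, adjusted p = 8.53e-14) and 2.35 in KO (adjusted p = 8.05e-14), and stayed up by 1.89 and 1.88 at 48 h. Between 12 and 48 h it fell by 0.45 in WT (adjusted p = 0.000129) and by 0.46 in KO (adjusted p = 6.71e-05). The genotype difference in the 12 h response was 0.01, with a 95% interval of -0.20 to 0.22, and in the 48 h response -0.01 (-0.21 to 0.20).

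IRF9, the DNA-binding subunit, rose further than STAT2 and was not called lower at 48 h than at 12 h. WT cells held 5.81, 6.31 and 6.24 RPKM untreated, 73.4, 71.3 and 71.7 at 12 h and 72.6, 76.9 and 68.2 at 48 h. KO cells held 4.81, 4.38 and 2.84 RPKM untreated, 82.2, 79.8 and 69.8 at 12 h and 76.8, 69.2 and 66.4 at 48 h. The 12 and 48 h libraries overlapped in each genotype and lay far above the untreated ones. In mean RPKM the rise at 12 h was 11.8-fold in WT and 19.3-fold in KO. The log2 difference was 3.36 in WT (SE 0.113, adjusted p = 5.19e-13) and 3.98 in KO (adjusted p = 4.68e-14) at 12 h, and 3.37 and 3.86 at 48 h. From 12 to 48 h it was 0.01 in WT (95% interval -0.23 to 0.25) and -0.12 in KO (-0.36 to 0.12). IRF9 shares sequence with the read-through gene AL136295.5 on its strand, which was at 0.32 to 2.05 RPKM.

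**Figure D2:**
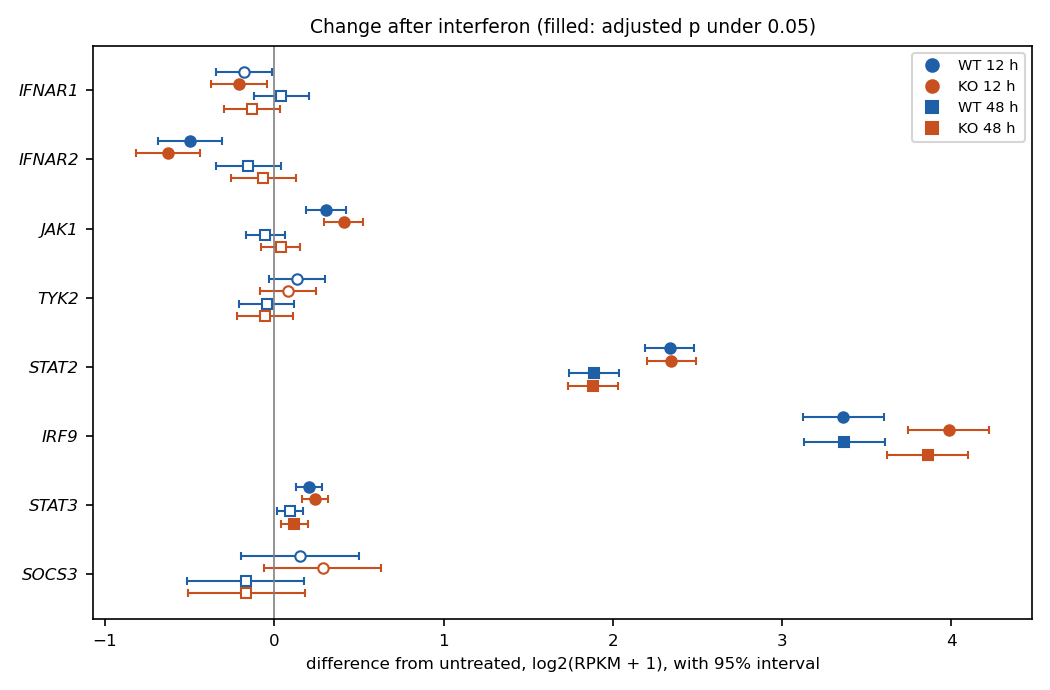
Difference from untreated cells in log2(RPKM + 1) for the 8 tested genes, with 95% intervals from limma; circles are 12 h, squares 48 h, blue WT and orange KO, and filled symbols have an adjusted p under 0.05. IRF9 and STAT2 lie between 1.88 and 3.98, whereas the other 6 genes lie between -0.63 and 0.41.

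The balance of the subunits shifted with time. The IRF9 to STAT2 ratio of RPKM in the 3 WT libraries was 0.485, 0.556 and 0.677 untreated, 1.20, 1.24 and 1.27 at 12 h, and 1.68, 1.77 and 1.66 at 48 h. In KO the ratio was 0.440, 0.424 and 0.277 untreated, 1.41, 1.34 and 1.28 at 12 h, and 1.82, 1.67 and 1.63 at 48 h. Untreated cells of both genotypes thus held less IRF9 than STAT2 RNA per length, and treated cells held more. The mean ratio was 0.573 ± 0.097 in untreated WT and 0.380 ± 0.090 in untreated KO (SD, n = 3), and the 3 KO ratios lay below the 3 WT ratios. By 48 h the means were 1.70 ± 0.059 and 1.71 ± 0.10.

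**Figure D3:**
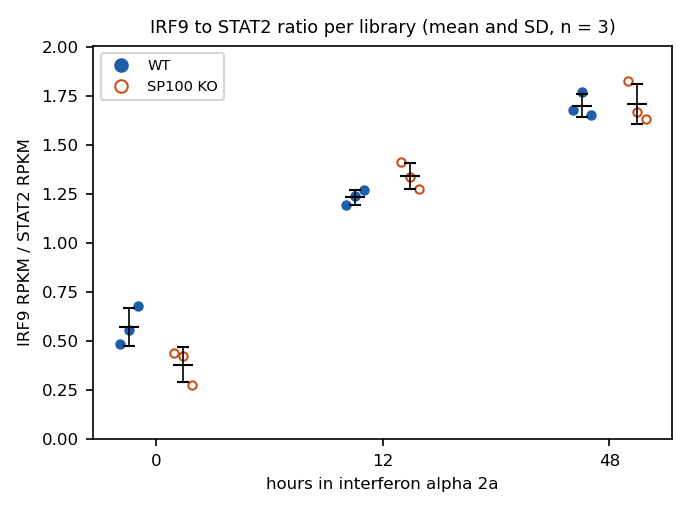
IRF9 RPKM divided by STAT2 RPKM in each library (axis from 0) against hours in interferon alpha 2a, with filled points for WT, open points for KO, and the mean and SD of 3 libraries. The ratio climbs from 0.573 in untreated WT and 0.380 in untreated KO to 1.70 and 1.71 at 48 h.

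STAT3 showed a small rise at 12 h. Its WT values were 30.9, 31.2 and 30.1 RPKM untreated, 35.8, 35.5 and 35.5 at 12 h and 31.9, 32.7 and 33.9 at 48 h. Its KO values were 27.1, 27.9 and 28.4 RPKM untreated, 32.4, 33.8 and 32.9 at 12 h and 30.3, 29.5 and 31.0 at 48 h. In each genotype the 3 times did not overlap, and at each time the KO libraries lay below the WT libraries. STAT3 rose at 12 h by 0.21 in WT (SE 0.036, adjusted p = 0.000266) and 0.24 in KO (adjusted p = 5.42e-05), then fell to 48 h by 0.12 in WT (adjusted p = 0.0213) and by 0.12 in KO (adjusted p = 0.014). Against untreated cells the 48 h value was called in KO (0.12, adjusted p = 0.0402) and not in WT (0.09, adjusted p = 0.115), and the genotype difference in that response was 0.03 with a 95% interval of -0.08 to 0.14. The KO call at 48 h was lost in 12 of 25 alternatives, where the adjusted p reached 0.162. STAT3 was 2.87 ± 0.35 times as abundant per length as STAT2 in untreated WT and 0.610 ± 0.023 times at 12 h.

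SOCS1, the JAK inhibitor, was near the bottom of the measured range. Its WT values were 0.09, 0.06 and 0.15 RPKM untreated, 0.51, 0.77 and 0.91 at 12 h and 0.26, 0.28 and 0.25 at 48 h. Its KO values were 0.25, 0.12 and 0.10 RPKM untreated, 0.50, 0.51 and 0.58 at 12 h and 0.11, 0.45 and 0.20 at 48 h. No library reached the filter of 1 RPKM, yet the 12 h libraries lay above the untreated ones in both genotypes. In a fit with no filter on low values SOCS1 was called higher at 12 h in WT (0.65, adjusted p = 0.000264) and KO (0.41, adjusted p = 0.00821) and lower from 12 to 48 h in WT (-0.45, adjusted p = 0.00638). The same step in KO gave -0.30 (adjusted p = 0.0504). In mean RPKM the rise at 12 h was 7.30-fold in WT and 3.38-fold in KO, and the genotype difference in that rise was -0.24 on the log2 scale (SE 0.157, adjusted p = 0.944). SOCS1 lies within RMI2, a gene on the other strand at 12.1 to 21.7 RPKM.

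SOCS3, the inhibitor best known from interleukin-6 type receptors, was not called against untreated cells. In WT it stood at 1.78, 1.45 and 1.83 RPKM untreated, 1.89, 1.51 and 2.64 at 12 h and 1.48, 1.10 and 1.60 at 48 h. In KO it stood at 1.20, 0.87 and 1.59 RPKM untreated, 1.35, 1.51 and 2.27 at 12 h and 1.05, 0.80 and 1.05 at 48 h. Replicate 3 was the highest of the 3 libraries at 12 h in each genotype. The 12 h difference was 0.15 in WT (95% interval -0.20 to 0.50) and 0.29 in KO (-0.06 to 0.63). From 12 to 48 h SOCS3 fell in KO by 0.45 (SE 0.163, adjusted p = 0.0368), and the WT difference was -0.32 (adjusted p = 0.138, or 0.0412 with the replicate block). The KO call rested on single libraries: without KO replicate 3 at 12 h it was -0.31 (adjusted p = 0.177), and without any of the 3 KO libraries at 48 h it was lost too (adjusted p of 0.0566 to 0.116).

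Genotype was compared at each time. In untreated cells, 2 of the 8 genes were lower in KO, IRF9 and STAT3, and none was higher, where 2.07% of all genes were called lower and 2.82% higher (2.36% and 2.08% with median-of-ratios scaling). IRF9 was at 6.12 ± 0.27 RPKM in WT and 4.01 ± 1.04 RPKM in KO (SD, n = 3), so the KO mean was 65.5% of the WT mean and the groups did not overlap. The log2 difference was -0.53 (SE 0.113, adjusted p = 0.0109). KO replicate 3, at 2.84 RPKM, was the lowest, and without it the difference was -0.35 (adjusted p = 0.0159). In a fit on the 6 untreated libraries alone the adjusted p was 0.161. STAT3 was at 30.7 ± 0.61 RPKM in WT and 27.8 ± 0.65 RPKM in KO, a difference of -0.14 (adjusted p = 0.0351). That call was lost in 7 of 25 alternatives, among them the omission of any of the 3 WT libraries and of KO replicate 1 or 2 at 0 h, with an adjusted p of up to 0.152.

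At 12 and 48 h none of the 8 genes was called between genotypes by limma, where 3.62% and 4.19% of all genes were. At an unadjusted p under 0.05 there were 3 at 12 h (IFNAR1, JAK1 and STAT3) and 1 at 48 h (STAT3), where 17% and 16.4% of all genes passed that mark. IRF9, lower in untreated KO cells, differed by 0.09 at 12 h (95% interval -0.14 to 0.33) and by -0.04 at 48 h (-0.28 to 0.20). STAT3 differed by -0.11 at both times (adjusted p = 0.134 and 0.108), with all 3 KO libraries below all 3 WT libraries each time. STAT2 differed by -0.03, -0.02 and -0.04 at 0, 12 and 48 h, and each 95% interval lay within -0.19 and 0.12. For IFNAR1 the KO value was higher by 0.21 at 0 h (adjusted p = 0.145), 0.18 at 12 h (adjusted p = 0.244) and 0.04 at 48 h.

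The difference between genotypes in the response to interferon was called for none of the 8 genes at 12 or 48 h, where 0.0753% and 0.0828% of all genes were called. At an unadjusted p under 0.05 there was 1 gene at each time, IRF9 in both cases, where 5.75% and 6.22% of all genes passed that mark. The IRF9 response was larger in KO by 0.62 at 12 h (95% interval 0.28 to 0.96, adjusted p = 0.379) and by 0.49 at 48 h (0.15 to 0.83, adjusted p = 0.675). Over the 25 alternatives the 12 h value ran from 0.44 to 0.74 and its adjusted p from 0.12 to 0.704. These 2 values and the difference at 0 h rest on the same untreated libraries.

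**Figure D4:**
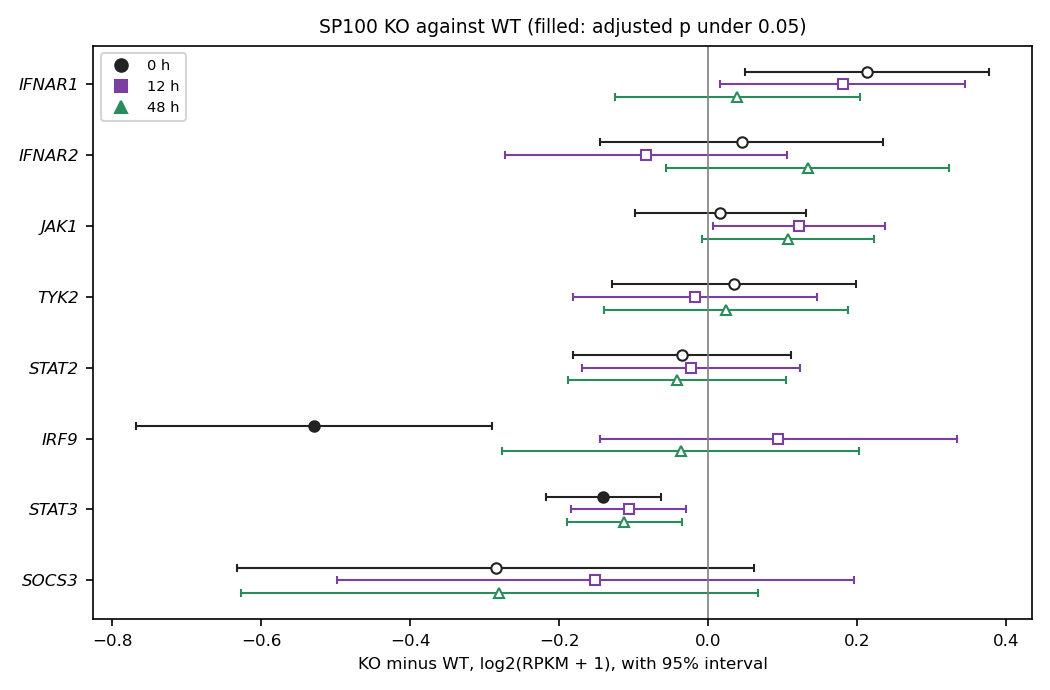
KO minus WT in log2(RPKM + 1) for the 8 tested genes, with 95% intervals from limma; circles are untreated cells, squares 12 h and triangles 48 h, and filled symbols have an adjusted p under 0.05. IRF9 (-0.53) and STAT3 (-0.14) are filled at 0 h only, and the STAT3 points lie between -0.14 and -0.11 at all 3 times.

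The order of the 9 genes by level changed on treatment. In untreated WT cells it ran from STAT3 (30.7 RPKM) through TYK2 (26.1), IFNAR1 (25.9), JAK1 (22.4), IFNAR2 (11.4), STAT2 (10.8), IRF9 (6.12) and SOCS3 (1.69) to SOCS1 (0.10). TYK2 and IFNAR1 overlapped, as did IFNAR2 and STAT2, and the other neighbours did not. At 12 h IRF9 (72.1 RPKM) and STAT2 (58.5 RPKM) stood first and second in WT, ahead of STAT3 (35.6 RPKM), and they kept these places at 48 h and in KO. IRF9 went from above 33.4% of the tested genes in untreated WT to above 89.0% at 12 h, and STAT2 from 47.3% to 86.4%. In untreated KO cells IFNAR1 (30.2 RPKM) stood first, overlapping STAT3 (27.8 RPKM), which overlapped TYK2 (26.8 RPKM).

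The rest of the pathway was described from 42 further genes in 7 lists, of which 36 were in the table and 31 were tested. For WT at 12 h, 4 rose and 14 fell, and for KO 5 and 12, with medians of -0.138 and -0.139, beside all-gene medians of -0.0855 and -0.0946. Of all genes, 15.1% were called higher and 29.8% lower at that time for WT, and 16.0% and 32.8% for KO. These shares are the background for each list below. With median-of-ratios scaling the counts were 4 up and 8 down for WT, and 7 and 7 for KO. Against untreated cells, 4 were up and 3 down at 48 h for WT, and 3 and 1 for KO, with medians of 0.014 and -0.0086 where all genes had -0.0026 and -0.012. Between 12 and 48 h the split was 14 up and 5 down for WT and 12 and 6 for KO, or 5 and 6 for WT and 8 and 7 for KO with median-of-ratios scaling. Between genotypes at 0 h, 3 were higher in KO (IL20RA, IFNGR1 and USP18) and 1 lower (PIAS3). Of all genes, 2.82% were called higher and 2.07% lower there. IL20RA met the filter only through the KO libraries, where it is high, so its call is descriptive. IFNGR1 lost its call with median-of-ratios scaling (adjusted p = 0.0643), with the replicate block (0.0589) and in a fit of only the compared libraries (0.168). Omission of some single libraries lost it too, with an adjusted p of up to 0.191. PIAS3 lost its call in a fit of only the compared libraries (adjusted p = 0.0965). That call was also lost without any single untreated library except WT replicate 3 (adjusted p of up to 0.119).

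Among other interferon receptor chains, 2 of 4 fell at 12 h in WT and 3 of 4 in KO, or 1 and 3 with median-of-ratios scaling. IFNGR2, a chain of the interferon gamma receptor, fell by 0.51 in WT (adjusted p = 1.42e-07) and by 0.41 in KO (adjusted p = 1.24e-06). IL10RB, the chain shared by the interleukin-10 and interferon lambda receptors, fell by 0.23 in WT (adjusted p = 0.0288; -0.14 and adjusted p = 0.163 with median-of-ratios scaling) and by 0.49 in KO (adjusted p = 0.000121). All 4 rose from 12 to 48 h in WT and 3 of 4 in KO. With median-of-ratios scaling 1 of 4 was called in WT (IFNGR2) and 2 in KO (IFNGR2 and IL10RB). Of all genes, 24.6% and 27.7% were called higher over that interval. Of the interferon ligands, 1 of 6 was in the table: IFNE, at 0.17 to 0.66 RPKM.

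Of the 3 tested JAK and STAT genes outside the 9, STAT6, the effector of interleukin-4, rose at 12 h like JAK1, by 0.44 in WT (adjusted p = 2.01e-05) and 0.38 in KO (adjusted p = 7.07e-05), and fell to 48 h by 0.61 and by 0.51. STAT5B was lower at 12 h by 0.19 in each genotype (adjusted p = 0.0481 in WT and 0.0436 in KO), and neither call was kept with median-of-ratios scaling (-0.10 and -0.09). Without WT replicate 2 at 0 h the WT value was -0.11 (adjusted p = 0.239). None of the 5 tested genes of the SOCS family rose at 12 h. In WT, 3 fell, CISH, SOCS2 and SOCS5, and in KO 1, SOCS5 (-0.30 in WT, adjusted p = 0.00132, and -0.25 in KO, adjusted p = 0.00405). With median-of-ratios scaling SOCS5 alone was called in WT, and CISH (adjusted p = 0.0698) and SOCS2 (adjusted p = 0.115) were not. CISH also lost its call in a fit of only the compared libraries (adjusted p = 0.0607) and without WT replicate 1 or 2 at 0 h or replicate 1 or 3 at 12 h, and SOCS2 without WT replicate 2 at 0 h or replicate 1 or 3 at 12 h. Whether these responses differed by genotype was tested in the interaction, which called none of the 5. SOCS1 and SOCS3, as given above, did not fall at 12 h.

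Of 9 other negative regulators, 1 rose at 12 h and 4 fell in each genotype, beside the 29.8% and 32.8% of all genes called lower. With median-of-ratios scaling the counts were 1 up and 3 down for WT, and 2 and 1 for KO. USP18, a protease that binds IFNAR2 and limits signalling, stood at 1.28, 1.36 and 1.26 RPKM in untreated WT, 74.0, 79.5 and 75.9 at 12 h and 38.6, 36.6 and 38.7 at 48 h. In KO it stood at 2.03, 1.82 and 1.75 RPKM untreated, 80.6, 78.8 and 84.1 at 12 h and 36.1, 35.7 and 36.9 at 48 h. It rose more than any of the 8 tested receptor and signalling genes, by 5.07 in WT and 4.84 in KO at 12 h, and by 4.08 and 3.70 at 48 h (adjusted p of 1.36e-18 or less). In untreated cells USP18 was higher in KO by 0.32 (SE 0.047, adjusted p = 0.000629; 0.157 in a fit on the 6 untreated libraries alone), opposite in sign to IRF9. The phosphatases PTPN6, PTPN11 and PTPN1 and the STAT inhibitor PIAS3 fell at 12 h in both genotypes. The largest of these falls was that of PTPN6, by 0.37 in WT (adjusted p = 0.000625) and by 0.50 in KO (adjusted p = 3.17e-05). PTPN11 was not called at 12 h in either genotype with median-of-ratios scaling, and PTPN1 and PIAS3 were called in WT only.

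Of 4 genes of receptor ubiquitination and turnover, PRKD2, a kinase that acts in the removal of IFNAR1 from the surface, rose at 12 h by 0.76 in WT (adjusted p = 1.19e-05) and 0.74 in KO (adjusted p = 1.29e-05). It was called at 48 h too, by 0.33 in WT (adjusted p = 0.0327) and 0.40 in KO (adjusted p = 0.0116). The WT call at 48 h was lost with the replicate block (adjusted p = 0.054) and without any of the 3 WT libraries at 0 h or WT replicate 1 or 2 at 48 h (adjusted p of up to 0.14). The KO call was lost in a fit of only the compared libraries (adjusted p = 0.0563) and without KO replicate 1 at 0 h or at 48 h. FBXW11, a ubiquitin ligase subunit, fell at 12 h by 0.30 in WT (adjusted p = 0.00116) and by 0.33 in KO (adjusted p = 0.000454). BTRC was called lower at 12 h in WT only, a call lost with median-of-ratios scaling (adjusted p = 0.105). CSNK1A1 was called higher from 12 to 48 h in both genotypes, and that scaling kept neither call (adjusted p = 0.0521 in WT and 0.111 in KO). Its call at 48 h against untreated WT cells was lost in a fit of only the compared libraries (adjusted p = 0.0742).

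Of 6 tested receptor chains that signal through STAT3, WT cells at 12 h had 1 higher and 2 lower, and KO cells had 2 of each. With median-of-ratios scaling the counts were 1 higher and 2 lower for WT, and 3 higher and 1 lower for KO. IL22RA1, a chain of the interleukin-22 receptor, rose by 0.64 in WT (adjusted p = 3.49e-05) and 0.75 in KO (adjusted p = 5.74e-06). IL6R, the interleukin-6 receptor, was lower at 48 h by 0.46 in WT (adjusted p = 0.000535) and by 0.66 in KO (adjusted p = 1.26e-05). IL20RA, a chain of the interleukin-20 receptor, was the only one of the 31 genes called between genotypes at all 3 times. Its WT values were 0.95, 0.48 and 0.59 RPKM untreated, 0.58, 0.51 and 0.46 at 12 h and 1.06, 1.16 and 0.92 at 48 h. Its KO values were 1.71, 2.02 and 2.01 RPKM untreated, 1.56, 1.92 and 1.42 at 12 h and 2.72, 2.75 and 3.11 at 48 h. It was higher in KO by 0.81, 0.79 and 0.92 (adjusted p of 0.000471, 0.000715 and 0.000155). The WT libraries alone would not have met the filter of 1 RPKM in 3 libraries. The gene was thus tested only through the group where it is high, and these p-values are descriptive.

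**Figure D5:**
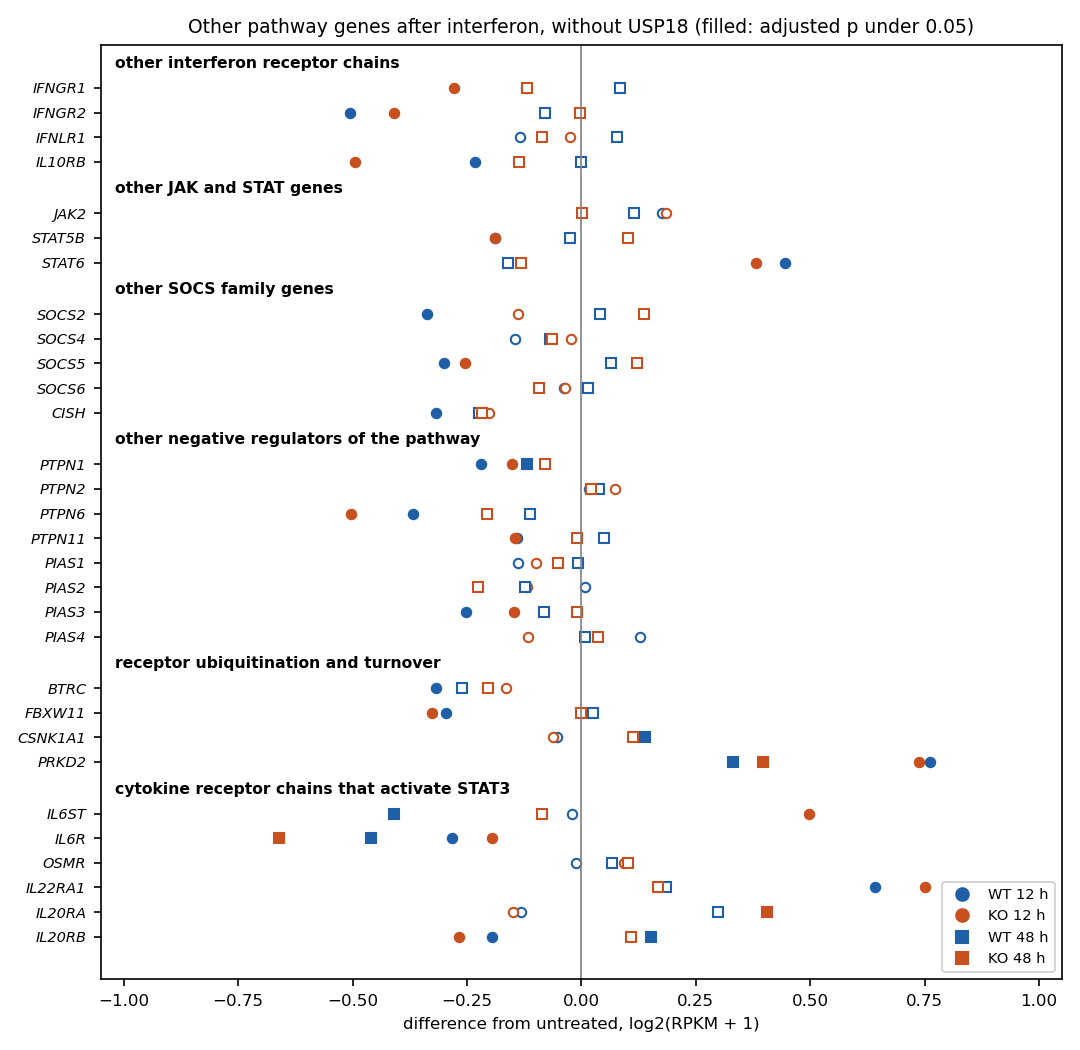
Difference from untreated cells in log2(RPKM + 1) for 30 of the 31 tested pathway genes by list, with circles for 12 h, squares for 48 h, blue for WT and orange for KO, and filled symbols for an adjusted p under 0.05; USP18 (5.07 in WT at 12 h) is off the scale and left out. PRKD2, IL22RA1 and STAT6 lie to the right at 12 h, and most other filled circles lie to the left.

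The 3 tested genes whose pattern was most like each of the 9 were found by Pearson correlation of log2(RPKM + 1) over the 18 libraries, which fall into 6 groups and so are not independent points. For STAT2 they were DTX3L, SAMHD1 and RIGI (r of 0.997, 0.997 and 0.996), and for IRF9 they were IFI44, IFIT3 and UBE2L6 (0.996, 0.995 and 0.992). JAK1 was most like CANX, BMAL2 and GDAP1 (0.964, 0.960 and 0.958), and IFNAR2 most like AP2B1, EIF2D and MIB1 (0.961, 0.961 and 0.958). STAT3 followed LINC00941, PDLIM1 and TLE4 (0.939, 0.934 and 0.930), and SOCS1 followed PLAUR, GPRC5A and MORC2-AS1 (0.912, 0.912 and 0.907). The highest values were lower for IFNAR1 (EMC2, 0.892), TYK2 (SFR1, 0.834) and SOCS3 (KCTD11, 0.817). Among the 9 themselves the highest correlation was that of IRF9 with STAT2 (0.978) and the lowest that of IFNAR2 with JAK1 (-0.800).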

How the data were processed

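The authors deposited gene levels as RPKM (read number corrected for gene length and library size), rounded to 2 decimals, for 16472 Ensembl gene IDs in 18 mapped columns. Libraries were made with a stranded mRNA kit, per the labels' protocols. The submitters' processing notes name the build hg19 and the tools cutadapt, STAR 2.6.1, RSEM 1.3.0 and limma 3.50.3, with no role or order. The annotation, the gene filter, the use of strand and the handling of mouse reads are not given in the sources used here. Read totals are unknown, so no counting interval is given.

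A table that pairs gene IDs with symbols named 15666 IDs, 12819 of them among the 13280 tested genes. From the deposited RPKM values, log2(RPKM + 1) was fitted with limma 3.58.1 in R 4.3.3 as 6 group means over all 18 libraries, with variances moderated along a trend in the mean; this scale understates the change of low genes. Tests were two-sided. Genes at 1 RPKM or above in 3 or more libraries were tested. Benjamini-Hochberg adjustment covered all tested genes of a comparison. The 11 comparisons set treated against untreated cells at 12 and 48 h and 48 h against 12 h within a genotype, set KO against WT at 3 times, and asked whether the 12 and 48 h responses differed by genotype (interaction). The script was tested on simulated data with known changes. Ratios and folds of mean RPKM have no pseudocount. Overlapping genes come from GENCODE 29, promoter windows from RefSeq on GRCh38.p14.

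The rule for named genes took all 9 genes, the genes of 7 pathway lists past the threshold in any comparison, and for each of the 9 the 3 genes with the highest correlation; some genes are not reported here. The 9 genes and the lists were chosen with earlier results of these data known. Alternatives were a pseudocount of 0.1, no filter, a filter at a mean of 5 RPKM, scaling by median of ratios, a fit of only the compared libraries, untrended variances, a replicate block, and each library left out.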

Additional observations from a re-analysis of the deposited data

Results flagged for a closer look

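USP18 stood out because a genotype difference in its response to interferon at 48 h was called, although most alternatives lost the call. The KO response was smaller by 0.38 on the log2(RPKM + 1) scale (difference of -0.38, SE 0.0669, limma, adjusted p = 0.0426), with changes of 4.08 in WT and 3.70 in KO. Before treatment the 3 WT libraries held 1.28, 1.36 and 1.26 RPKM of USP18 and the KO libraries 2.03, 1.82 and 1.75 RPKM; after 48 h the means were 38.0 ± 1.16 RPKM for WT and 36.2 ± 0.63 RPKM for KO (SD, n = 3). The call was lost with median-of-ratios scaling (adjusted p = 0.0608), with no filter on low values (0.0535) and with variances without a trend (0.0508). It was lost too with the replicate block (0.131) and when only the compared libraries were fitted (0.365). Leaving out any single library except KO replicate 3 at 0 h also lost it. None of the other listed genes that were tested was called in an interaction. Untreated libraries enter both this value and the difference of 0.32 at 0 h.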

How the results depend on the processing

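Of 28 called differences of the 8 tested genes, none reversed, 20 kept their call in every alternative run and 8 lost it in at least 1: STAT3 and IRF9 between genotypes at 0 h, STAT3 at 48 h in KO, IFNAR1 at 12 h in KO and from 12 to 48 h in WT, STAT3 from 12 to 48 h in both genotypes, and SOCS3 from 12 to 48 h in KO. Of 60 differences that were not called, 21 changed sign and 5 gained a call in some alternative. Of 90 called differences of the other pathway genes, none reversed and 37 lost their call in some alternative; the cause was not tested. A fit of only the compared libraries, which estimates the spread from fewer samples, called 3 of the 8 genes from 12 to 48 h in WT, 3 in KO, and 0 between genotypes at 0 h. Leaving out each library gave 3 to 5 genes from 12 to 48 h in WT and 3 to 5 in KO, and 1 to 2 between genotypes at 0 h.

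The replicate numbers gave little sign of pairing. Of 45 pairs of same-numbered libraries, 2 correlated above 0.1 in their deviations from the group means (-0.10 to 0.16). These correlations run over all tested genes, so a pairing that affects few genes would not show in them. With the replicate block, 1 gene, IRF9, was called between genotypes at 0 h (STAT3 had an adjusted p = 0.0577), and USP18 was not called in the interaction at 48 h (adjusted p = 0.131). At 48 h in KO the block gave 2 genes instead of 3, since STAT3 was lost (adjusted p = 0.0587). From 12 to 48 h in WT it gave 5 genes as before, but IFNAR1 was lost (adjusted p = 0.0544) and SOCS3 gained (adjusted p = 0.0412). Among the 8 genes it changed no other call.

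None of the 21 differences that changed sign was called, and those given here lay near 0. With median-of-ratios scaling IRF9 from 12 to 48 h in WT was -0.080, and with single libraries left out it ran from -0.035 to 0.051. Over the omissions of single libraries, TYK2 at 48 h in WT ran from -0.12 to 0.028, IFNAR2 at 48 h in KO from -0.19 to 0.013, IRF9 between genotypes at 48 h from -0.096 to 0.0078, and IFNAR1 between genotypes at 48 h from -0.017 to 0.10. STAT2 between genotypes ran from -0.14 to 0.035 at 0 h and -0.051 to 0.013 at 12 h, and its interaction from -0.059 to 0.11 at 12 h and -0.076 to 0.096 at 48 h. Rounding to 2 decimals and unknown read totals limit what can be said of SOCS1.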
